A study of Mus musculus with 6 samples.

Results

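The activin family was followed here through 9 genes, all 9 of which were measured among the 23930 genes of the table: the subunit genes Inhba, Inhbb and Inha, the receptor genes Acvr1b, Acvr2a and Acvr2b, and the follistatin family genes Fst, Fstl3 and Fstl1. They were chosen by name, as ligands, receptors and antagonists of 1 pathway, after Inhba was known to stand among the genes with the largest rise in this comparison, so the values of the 9 genes between the groups are given as a description, without p-values. The cells were CD31-positive cells sorted by flow cytometry from subcutaneous tumours that LLC (Lewis lung carcinoma) cells, a line from a lung tumour of a mouse, had formed in C57/Bl6 mice by 2 weeks after injection. In 3 libraries (replicates 1, 2 and 3) the injected LLC cells were controls, and in 3 libraries (replicates 4, 5 and 6) they overexpressed BMP9, a circulating bone morphogenetic protein encoded by Gdf2. All groups therefore share the line, the host strain, the time and the sort, and the overexpression was in the tumour cells, not in the cells sorted. By its title, the series concerns BMP9 in the normalization of tumour vessels. Whether each library is a separate animal, and whether the LLC cells were 1 clone, the labels leave unsaid, so a p-value here reflects the spread of these libraries alone, which may be technical. Gdf2 itself had 0 reads in the controls and 1, 1 and 5 reads (0.506, 0.227 and 0.176 RPM) in BMP9 replicates 4, 5 and 6, in cells that were not those engineered.

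Activins are secreted dimers of beta subunits of the transforming growth factor beta superfamily. The beta A chain (Inhba) makes activin A, the beta B chain (Inhbb) activin B, and a beta chain joined to the alpha chain (Inha) makes an inhibin, which blocks activin by occupying its receptors. Activin binds a type II receptor (Acvr2a or Acvr2b), which recruits and phosphorylates the type I receptor ALK4 (Acvr1b), and ALK4 phosphorylates SMAD2 and SMAD3. Follistatin (Fst) and follistatin-like 3 (Fstl3) wrap the ligand and keep it from its receptors. Fstl1 carries a follistatin domain but is a matrix-associated glycoprotein with other partners. The type II receptors are shared with BMP9, which otherwise signals in endothelium through ALK1. Macrophages and stromal cells are known sources of activin A in inflamed and tumour tissue.

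The libraries held 1321762 to 4583428 reads in the control group and 1974510, 4409655 and 28380957 reads in BMP9 replicates 4, 5 and 6. Each gene was read as 1 amplicon, so reads need no division by transcript length, but amplicons differ in yield, and a level set against that of another gene is only a rough comparison. Values are RPM, the reads of a gene in proportion to all reads of its library. CD31 also marks platelets and many leukocytes, and the defining endothelial transcript Cdh5 was low, with means of 9.81 ± 4.65 RPM in the control group and 6.15 ± 2.63 RPM in the BMP9 group (SD, n = 3 each), against 448 ± 84.3 and 303 ± 53.5 RPM for Pecam1, the gene of CD31. Transcripts of macrophages and of T and NK cells were abundant, with the values given further on. In such bulk samples, fewer cells of a type and less RNA per cell cannot be told apart. BMP9 replicate 4 carries the same run time stamp as the 3 controls, and BMP9 replicates 5 and 6 a later one that holds no control.

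Of the 9 genes, 4 had at least 5 RPM in at least 3 libraries and could be tested: Inhba, Acvr1b, Acvr2a and Fstl1. In limma-trend on log2(RPM + 1) with Benjamini-Hochberg adjustment over all 9460 genes tested, 1 of these 4 was called higher at an adjusted p of 0.05 and 0 were called lower. With edgeR and with DESeq2 the counts were also 1 and 0, and 0 were lower at an unadjusted p under 0.05. Across all tested genes, 12.7% were called higher and 22.5% lower, 35.2% in all, and since the contrast was known when the genes were chosen nothing is read from the count. Inhba passed the filter only through the 3 libraries in which it was high. With TMM scaling the split over all genes was 1675 higher and 1319 lower in place of 1200 and 2130, and the median change over all 9460 genes was 0.03 on the log2 scale in place of -0.24, so changes are to be read against that shift. The plot of the 9 genes by library shows this pattern of 1 subunit gene that differed between the groups and receptors whose levels overlapped.

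**Figure D1:**
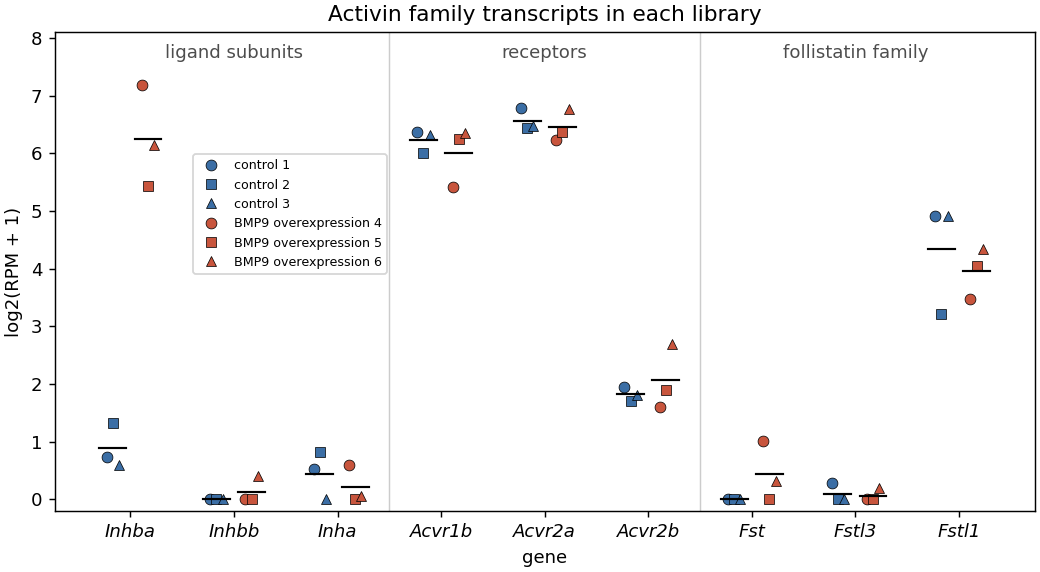
Levels of the 9 activin family genes in each library on the log2(RPM + 1) scale, with control libraries in blue, BMP9 overexpression libraries in red and bars at the group means. Inhba lay at 1.51 RPM or less in the 3 control libraries and at 42.2 RPM or more in the 3 BMP9 libraries, and no other gene had groups that did not overlap.

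Inhba (chromosome 13, 16011851 to 16031621, plus strand, mm10) is the gene of the beta A subunit. It was at 0.655, 1.51 and 0.5 RPM in control replicates 1, 2 and 3 and at 145, 42.2 and 69.5 RPM in BMP9 replicates 4, 5 and 6. All 3 BMP9 libraries were far above all 3 controls. The control values rest on 3, 2 and 1 reads, and those of the BMP9 libraries on 286, 186 and 1973 reads. Taken over the reads of each group, 6 of 7904976 control reads and 2445 of 34765122 BMP9 reads were from Inhba. That is a 92.7-fold ratio of read rates, with an exact 95% interval of 42.5 to 253 that covers counting error only. Taken singly against the control reads, BMP9 replicates 4, 5 and 6 gave ratios of 191, 55.6 and 91.6, each with an interval whose lower bound is 25.05 or more.

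Among the controls Inhba was barely detected, and among the BMP9 libraries it differed between replicates by more than counting error. Exact 95% intervals of counting error were 129 to 163 RPM in BMP9 replicate 4, 36.3 to 48.7 RPM in replicate 5 and 66.5 to 72.7 RPM in replicate 6, with no overlap between the 3. Ranked by RPM within each library, Inhba stood between place 10444 and 11637 from the top in control libraries and at places 1471, 4270 and 2964 in BMP9 replicates 4, 5 and 6. On the log2(RPM + 1) scale the difference was 5.37 (SE 0.43), a scale that understates a change from such a low level. With a pseudocount of 5 it was 3.78, and edgeR on recovered reads, which needs no pseudocount of that size, gave 7.01. Within the earlier run time stamp, where BMP9 replicate 4 alone stands against the controls, it was 6.31, and without replicate 4 it was 4.91. Only 1 tested gene had a larger rise on that scale.

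Inhbb (chromosome 1, 119415465 to 119422248, minus strand), the beta B subunit gene, had no reads in 5 of the 6 libraries. The 9 reads it had were all in BMP9 replicate 6, at 0.317 RPM. A level of 3 reads is 0.106 RPM in that library but 0.655, 2.27 and 1.5 RPM in the controls. It is 1.52 and 0.68 RPM in BMP9 replicates 4 and 5. A library with no reads allows levels up to its level of 3 reads. None of these 5 libraries therefore excludes the 0.317 RPM seen in replicate 6. At the depth of the shallowest library 0.317 RPM would have given 0.419 reads. The 3 control libraries together allow up to 0.38 RPM.

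Inha (chromosome 1, 75507077 to 75510366, plus strand), the alpha subunit gene that turns a beta chain into an inhibin, was at 0.436, 0.757 and 0 RPM in control replicates 1, 2 and 3. In BMP9 replicates 4, 5 and 6 it was at 0.506, 0 and 0.035 RPM. These values come from 3 control reads and 2 BMP9 reads, so the groups overlapped and no difference was detectable at this depth. Of the 3 subunit genes, Inhba was therefore the only one above 1 RPM in any library.

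The deposited values hold no promoter signal. Promoter sequences are shown only to place the subunit gene that differed beside its paralog and beside a receptor gene that was not called. Each is 300 bases from RefSeq on GRCm38.p6 (mm10), from 250 bases before the transcription start to 50 bases from it onward, 5′ to 3′ on the gene's strand, with CG pairs in capitals. Inhba is at chr13:16011601-16011900 on the plus strand, Inhbb at chr1:119422199-119422498 on the minus strand and Acvr2a at chr2:48813859-48814158 on the plus strand.
Inhba: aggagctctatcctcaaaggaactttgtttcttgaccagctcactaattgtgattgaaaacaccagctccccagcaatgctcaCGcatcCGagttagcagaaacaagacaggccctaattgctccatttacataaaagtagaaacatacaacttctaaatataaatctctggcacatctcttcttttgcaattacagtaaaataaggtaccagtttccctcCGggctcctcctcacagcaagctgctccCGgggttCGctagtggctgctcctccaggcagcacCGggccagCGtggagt
Inhbb: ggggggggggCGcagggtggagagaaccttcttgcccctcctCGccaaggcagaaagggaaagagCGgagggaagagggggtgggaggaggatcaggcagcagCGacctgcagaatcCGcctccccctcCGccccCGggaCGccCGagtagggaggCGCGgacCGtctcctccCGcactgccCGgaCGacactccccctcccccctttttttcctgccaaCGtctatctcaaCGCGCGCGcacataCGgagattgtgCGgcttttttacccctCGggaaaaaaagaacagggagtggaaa
Acvr2a: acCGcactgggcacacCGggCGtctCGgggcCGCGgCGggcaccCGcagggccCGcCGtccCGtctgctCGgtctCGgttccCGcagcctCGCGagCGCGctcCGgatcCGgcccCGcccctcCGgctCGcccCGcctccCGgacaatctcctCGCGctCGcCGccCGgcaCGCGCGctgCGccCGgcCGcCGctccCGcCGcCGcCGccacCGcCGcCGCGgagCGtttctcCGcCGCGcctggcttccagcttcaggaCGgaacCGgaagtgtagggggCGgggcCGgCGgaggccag

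RefSeq promoter windows matched 8 of the 9 genes, all but Fst. The Inhba window held 7 CG pairs, the median of all 32851 windows, and a GC content of 47.7% against a median of 52.7%. The Inhbb window held 23 CG pairs, more than 78.5% of all windows have. The receptor genes Acvr2a and Acvr1b held 54 and 51 pairs, more than 99.7% and 99.3% of windows. Acvr2b, Fstl3, Fstl1 and Inha held 27, 25, 21 and 5. Searched on both strands, the AP-1 motif TGANTCA and the cyclic AMP response element TGACGTCA were absent from all 8 windows, and 7.81% and 1.79% of all windows hold them. The short SMAD box CAGAC, which 49.6% of windows hold, occurred once in the Acvr2a window and not in the Inhba or Inhbb windows. The letters TATAAA, present in 13.6% of windows, stood 91 bases before the Inhba start. Such matches describe these letters only.

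The 3 receptor genes had levels that overlapped between the groups. Acvr2a (chromosome 2, 48814109 to 48903269, plus strand), a type II receptor that binds activin, myostatin and several BMPs, was at 109, 85.5 and 88 RPM in control replicates 1, 2 and 3. It was at 74.4, 81.4 and 108 RPM in BMP9 replicates 4, 5 and 6, within a range that overlapped the controls. The means were 94.2 ± 12.96 and 88.1 ± 17.9 RPM (SD, n = 3 each), and the log2 difference was -0.11 with a 95% interval of -0.68 to 0.47 from the limma fit. The interval holds differences in either direction, so equal levels are not shown. With TMM scaling the difference was 0.18, so its sign depends on the scaling.

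Acvr1b (chromosome 15, 101174067 to 101213684, plus strand), the gene of the type I receptor ALK4 that carries the activin signal to SMAD2 and SMAD3, was at 81.6, 63.6 and 78.5 RPM in control replicates 1, 2 and 3. It was at 41.5, 74.6 and 80.9 RPM in BMP9 replicates 4, 5 and 6. BMP9 replicate 4, the library with the highest Inhba, was the lowest of the 6 for Acvr1b, and the other two BMP9 libraries lay among the controls. The means were 74.6 ± 9.65 and 65.7 ± 21.1 RPM (SD, n = 3 each), and the log2 difference was -0.23 with a 95% interval of -0.88 to 0.42. It was -0.82 within the earlier run time stamp, 0.07 without BMP9 replicate 4 and 0.05 with TMM scaling, so its sign depends on the scaling and on that library.

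Acvr2b (chromosome 9, 119402118 to 119434995, plus strand), the other type II activin receptor, was far lower than Acvr2a in all 6 libraries. It was at 2.84, 2.27 and 2.5 RPM in control replicates 1, 2 and 3 and at 2.03, 2.72 and 5.46 RPM in BMP9 replicates 4, 5 and 6. Control replicate 2 and BMP9 replicate 4 rest on 3 and 4 reads, while BMP9 replicate 6 rests on 155. It reached the minimum of 5 RPM in 1 library and was not tested. Reads of Acvr2a outnumbered those of Acvr2b by 35.2 to 38.5 times in the controls and by 19.8 to 36.8 times in the BMP9 libraries. In each of the 6 libraries the order was Acvr2a, then Acvr1b, then Acvr2b, with Acvr2a at 1.09 to 1.79 times the reads of Acvr1b. Amplicon yield may set such ratios between genes. Over the 6 libraries the ranges of Acvr2a (74.4 to 109 RPM) and Acvr1b (41.5 to 81.6 RPM) overlapped although Acvr2a was the higher in each library, and Acvr2b lay apart from both.

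The follistatin family gave 2 genes at the limit of detection and 1 at a moderate level. Fst (chromosome 13, 114452290 to 114458951, minus strand), the gene of the main extracellular activin antagonist and itself a known activin-responsive gene, had 0 reads in the 3 control libraries, which allows up to 0.38 RPM over the group. In BMP9 replicates 4, 5 and 6 it had 2, 0 and 7 reads, or 1.01, 0 and 0.247 RPM. Fstl3 (chromosome 10, 79777272 to 79782630, plus strand), which binds activin in the same way, had 1 read in the controls, in replicate 1. It had 4 in the BMP9 libraries, all in replicate 6. No difference between the groups was detectable for either gene at this depth.

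Set side by side within a library, the 3 BMP9 libraries held many Inhba reads and hardly any of its antagonists. BMP9 replicate 4 had 286 Inhba reads beside 2 of Fst and Fstl3 together, replicate 5 had 186 beside 0, and replicate 6 had 1973 beside 11. Each of these genes was read by 1 amplicon, and how well the Fst and Fstl3 amplicons work in such cells was not tested. Against its type II receptor, Inhba reads were 0.568% to 1.77% of Acvr2a reads in the control libraries. They were 195%, 51.8% and 64.2% of Acvr2a reads in BMP9 replicates 4, 5 and 6. The subunit gene thus went from far below the receptor gene to a like number of reads.

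Fstl1 (chromosome 16, 37776873 to 37836514, plus strand), known from fibroblasts and other mesenchymal cells, was at 29.0, 8.32 and 29.0 RPM in control replicates 1, 2 and 3. It was at 10.1, 15.4 and 19.3 RPM in BMP9 replicates 4, 5 and 6. The groups overlapped, with control replicate 2 the lowest of the 6 libraries on 11 reads. The means were 22.1 ± 11.9 and 14.96 ± 4.62 RPM (SD, n = 3 each). The log2 difference was -0.39 with a 95% interval of -1.33 to 0.55, and without control replicate 2 it was -0.95.

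**Figure D2:**
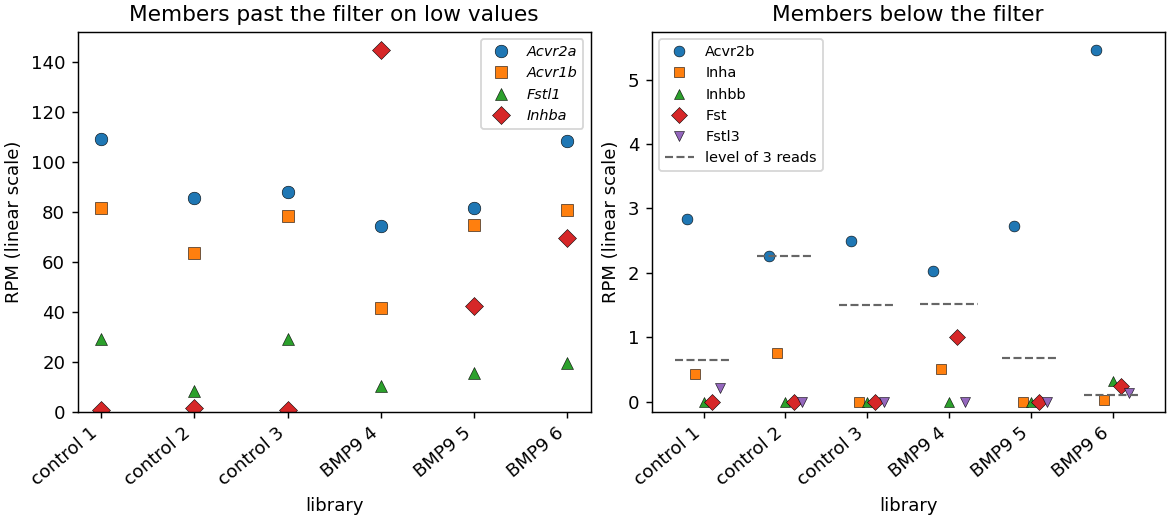
RPM on a linear scale in each library for the 4 genes past the filter on low values (left) and the 5 below it (right), where dashed lines mark the level of 3 reads in that library. Acvr2a and Acvr1b stayed between 41.5 and 109 RPM in all 6 libraries, and most values of Inha, Inhbb, Fst and Fstl3 lay below the level of 3 reads.

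The other genes of the pathway were taken from 6 lists by role, 57 genes in all, of which 54 were in the table and 28 could be tested. Of these 28, 5 were higher and 4 lower in BMP9 libraries (limma, adjusted p of 0.05), which is 32.1% called against 35.2% of all tested genes. Higher calls were 17.9% of the 28, against 12.7% of all tested genes. The median log2 fold change of the 28 was 0.31, beside -0.24 over all tested genes. The groups did not overlap for 14 of the 28, and for 48.1% of all tested genes. Some of the called genes, named below, passed the filter only through the group in which they were high, and their calls are a description. These shares also depend on the fit. With TMM scaling 10 of the 28 were higher and 3 lower, or 46.4% called against 31.6% of all tested genes, and their median was 0.57 beside 0.03. With edgeR 9 were higher and 3 lower (42.9% called against 32.9%), and with DESeq2 12 and 3 (53.6% against 35.1%).

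Other ligands of these receptors were scarce. Inhbc, Inhbe, Mstn (myostatin), Gdf1 and Nodal had no reads in any library. Lefty1, a Nodal antagonist, had 3 control and 39 BMP9 reads from groups of unlike depth, or 0.49 and 1.82 RPM on average, and was below the filter. Gdf11, a ligand that also uses the type II activin receptors, was at 9.38, 9.84 and 10.001 RPM in control replicates 1, 2 and 3 and at 5.07, 2.27 and 2.22 RPM in BMP9 replicates 4, 5 and 6. It was lower in all 3 BMP9 libraries, with a log2 fold change of -1.43 (SE 0.39, limma adjusted p = 0.0101), but the call was lost without the filter on low values, within the earlier run time stamp (-0.82) and without BMP9 replicate 6 (-1.27). Gdf3, the other tested ligand, was at 7.89 and 9.89 RPM on average (0.28, adjusted p = 0.623).

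Among other receptors and co-receptors, 1 of 4 tested rose and 0 fell in limma, or 25% called against 35.2% of all tested genes. Bambi, a decoy receptor that lacks a kinase and dampens signalling of the family, was at 3.93, 5.3 and 4 RPM in control replicates 1, 2 and 3 and at 7.09, 13.4 and 10.4 RPM in BMP9 replicates 4, 5 and 6. All 3 BMP9 values were above the controls, with a log2 fold change of 1.03 (SE 0.37, limma adjusted p = 0.0422). The call was lost without the filter, without control replicates 1 (0.97) or 3 (0.98), without BMP9 replicates 5 (0.84) or 6 (1.005), and within the earlier stamp (0.59). Fkbp1a, the immunophilin that holds type I receptors inactive, was at 101 and 134 RPM on average (0.41, adjusted p = 0.221), and it was called higher with TMM (0.69) and DESeq2 (0.66). The nodal-type co-receptor genes Tdgf1 and Cfc1, and Acvr1c, the gene of ALK7, each had 18 reads or fewer over all libraries. Gdf11 and Bambi were singled out after their values were seen, since their mean level was under the 10 RPM set for naming called genes. Bambi passed the filter only through the BMP9 libraries and Gdf11 only through the controls, in each case where the gene was high. Their calls are therefore a description.

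Of 4 convertases that can cut such precursors to their mature form, Pcsk5 and Pcsk6 had 1 and 7 reads over all libraries, and neither of the 2 tested passed the test (limma, adjusted p = 0.0707 for Furin, 0.480 for Pcsk7). Furin was at 119, 89.3 and 91.0 RPM in control replicates 1, 2 and 3 and at 295, 108 and 166 RPM in BMP9 replicates 4, 5 and 6. Its groups overlapped between control replicate 1 and BMP9 replicate 5. The log2 fold change was 0.81 (SE 0.33), and Furin was called higher with TMM (1.10), edgeR (1.17) and DESeq2 (1.16), within the earlier stamp (1.56) and without BMP9 replicate 5 (1.15).

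Among the SMAD proteins and their regulators, 2 of 13 tested genes were higher and 2 lower in limma without further scaling. That is 30.8% called, against 35.2% of all tested genes. The split was 4 higher and 1 lower with TMM and with edgeR, and 6 higher and 1 lower with DESeq2. Over all tested genes, 17.7%, 17.9% and 18.7% were higher and 13.9%, 15% and 16.3% lower with TMM, edgeR and DESeq2. Smad3, a direct substrate of ALK4, was at 101, 56.0 and 113 RPM in control replicates 1, 2 and 3 and at 57.2, 30.8 and 45.2 RPM in BMP9 replicates 4, 5 and 6. The groups overlapped, since control replicate 2 lay just below BMP9 replicate 4. The log2 fold change was -0.98 (SE 0.33, limma adjusted p = 0.0313), and the call was lost without the filter, with TMM (-0.70), edgeR (-0.77) and DESeq2 (-0.79), within the earlier stamp (-0.58), and without control replicates 1 (-0.87) or 3 (-0.79) or BMP9 replicates 5 (-0.75) or 6 (-1.02). Its partners Smad2 and Smad4 had log2 fold changes of 0.11 (adjusted p = 0.796) and 0.76 (adjusted p = 0.0553) in limma, and Smad4 was called higher with TMM (1.04), edgeR (1.03) and DESeq2 (1.01).

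Zfyve9, the gene of SARA, the anchor that presents SMAD2 and SMAD3 to the type I receptor, was at 2.84, 1.51 and 6.5 RPM in control replicates 1, 2 and 3. It was at 19.2, 17.7 and 12.6 RPM in BMP9 replicates 4, 5 and 6, above every control, with a log2 fold change of 2.05 (SE 0.42, limma adjusted p = 0.00177). Zfyve9 passed the filter only through the BMP9 libraries, where it was high, so its call is a description. Trim33, a ubiquitin ligase known to act on SMAD4, fell from 97.5 ± 22.8 to 41.3 ± 5.93 RPM (SD, n = 3 each). The change was -1.20 on the log2 scale (SE 0.29, limma adjusted p = 0.00439) and lost its call within the earlier stamp (-0.99). Skil, the SnoN corepressor that SMAD2 and SMAD3 signalling induces, was at 97.1, 127 and 130 RPM in control replicates 1, 2 and 3 and at 264, 200 and 154 RPM in BMP9 replicates 4, 5 and 6. Its log2 fold change was 0.78 (SE 0.28, limma adjusted p = 0.0416), and the call was lost without the filter, without any 1 of the 3 controls (0.64, 0.84 and 0.85) and without BMP9 replicates 4 (0.58) or 5 (0.78). Tgif1, a corepressor, was the most abundant gene of this list, at 133 and 202 RPM on average (0.60, adjusted p = 0.0817), and was called higher with TMM (0.88), edgeR (0.85) and DESeq2 (0.84).

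Of 8 tested genes that SMAD2 and SMAD3 are known to induce, 3 rose and 0 fell in limma at an adjusted p of 0.05. That is 37.5% called, where 35.2% of all tested genes were called and 12.7% rose. At an unadjusted p under 0.05, 5 were higher and 0 lower. The share over all genes at that threshold was not computed, so nothing is read from these 2 counts. With TMM and with edgeR 5 were higher, where 17.7% and 17.9% of all genes were, with DESeq2 7, where 18.7% were, and 0 were lower in each. Of the 8, 4 (Skil, Tgif1, Smad7 and Pmepa1) are also counted in the SMAD list above. The median log2 fold change was 0.73, beside -0.24 over all tested genes. Cdkn1a, the cell cycle inhibitor p21, was at 62.2, 80.2 and 113 RPM in control replicates 1, 2 and 3 and at 321, 503 and 438 RPM in BMP9 replicates 4, 5 and 6. It rose by 2.31 on the log2 scale (SE 0.29, limma adjusted p = 3.52e-05). Skil, given above, also rose. The order of the 3 BMP9 libraries differed between these genes: Inhba and Skil were highest in replicate 4, and Cdkn1a was lowest there.

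The feedback targets Smad7 and Pmepa1 did not pass the test in limma, but DESeq2 called both higher (0.80, adjusted p = 0.0472, and 1.31, adjusted p = 0.0354), and neither was called with TMM or edgeR. Smad7, the inhibitory SMAD, was at 38.2, 49.2 and 51.5 RPM in control replicates 1, 2 and 3 and at 94.2, 59.9 and 51.6 RPM in BMP9 replicates 4, 5 and 6 (0.52, limma adjusted p = 0.196). Pmepa1, which sequesters SMAD2 and SMAD3, was at 16.4 ± 10.7 and 34.5 ± 21.7 RPM (0.96, adjusted p = 0.150; SD, n = 3 each). Junb, the most abundant gene of the list, was at 1802 and 1629 RPM on average (-0.12, adjusted p = 0.763). Cdkn1a and Junb also respond to hypoxia, stress or inflammatory signals, and the part of such signals in these levels was not tested.

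Proteins that share the follistatin domain were low except Sparc, a matrix protein of mesenchymal and endothelial cells. Sparc was at 43.9, 62.8 and 91.5 RPM in control replicates 1, 2 and 3 and at 20.8, 13.6 and 22.8 RPM in BMP9 replicates 4, 5 and 6. It fell by 1.71 on the log2 scale (SE 0.34, limma adjusted p = 0.00131), and every BMP9 value was below every control. It was the 1 of 3 tested genes of this list that was called, or 33.3% against 35.2% of all tested genes. Sparcl1 just missed the threshold, at 7.78 and 2.65 RPM on average (-1.42, limma adjusted p = 0.0509). Igfbp7 was not called (-0.45, adjusted p = 0.583), and 10 more genes were below the filter.

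**Figure D3:**
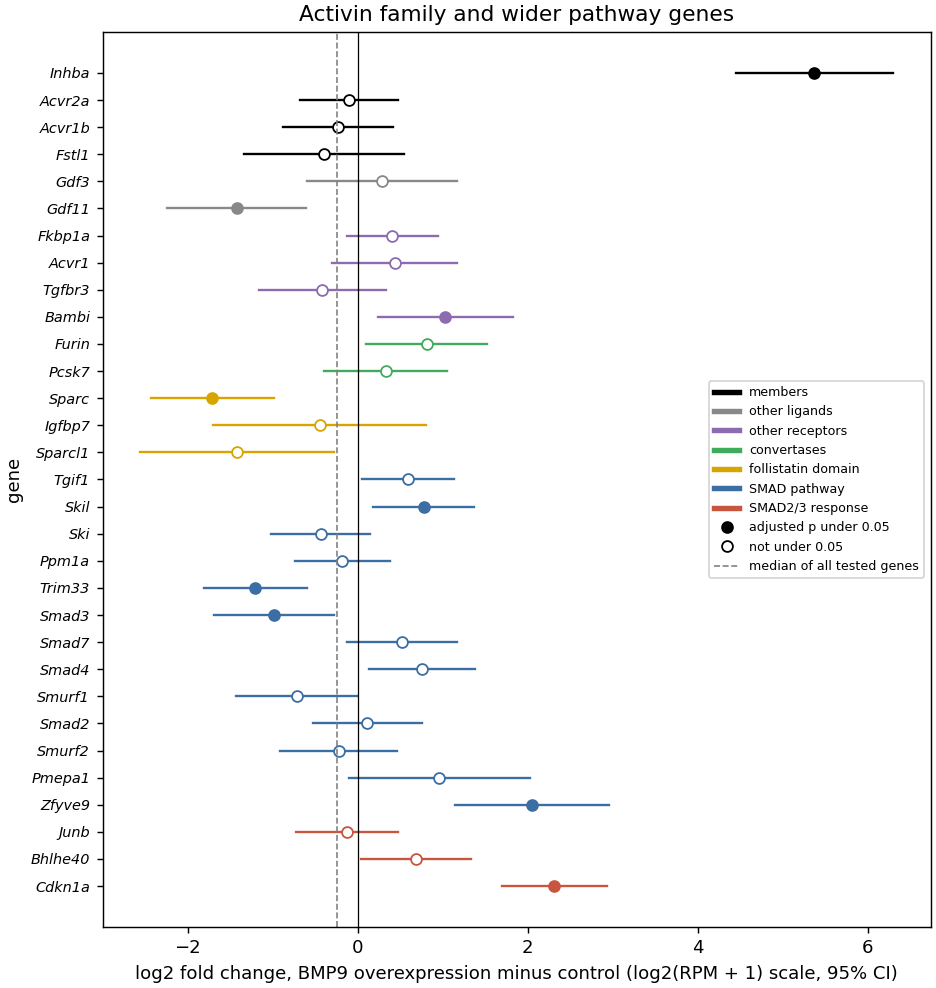
Log2 fold changes of the 4 testable family genes and all but 1 of the 28 tested pathway genes with 95% confidence intervals from the limma fit, coloured by role, with filled points for an adjusted p under 0.05, each gene shown once. Inhba lay at 5.37, apart from Acvr2a, Acvr1b and Fstl1, whose intervals held 0, and among the pathway genes drawn Cdkn1a and Zfyve9 had the largest rises.

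Markers of several cell types differed between the same libraries. Over all tested genes, limma called 12.7% higher and 22.5% lower. With TMM, edgeR and DESeq2, 17.7%, 17.9% and 18.7% were higher and 13.9%, 15% and 16.3% lower. All 13 tested macrophage and monocyte markers rose (limma, adjusted p of 0.05), with Lyz2 the most abundant. The sum over all 15 was 4722 to 7320 RPM in control and 20587, 18929 and 24928 RPM in BMP9 replicates 4, 5 and 6. Of 14 immediate-early and heat shock genes 8 rose, and Junb, the most abundant, was not called (-0.12, limma adjusted p = 0.763). Their sum was 4441 to 5586 RPM in control and 8379, 6151 and 6965 RPM in BMP9 replicates 4, 5 and 6. Of 4 tested platelet and megakaryocyte markers 3 rose. Itgb3, also tested, was lower on average (44.4 and 23.2 RPM) without a call (-1.08, limma adjusted p = 0.0743). The 7 in the list, with Pf4 the most abundant, summed to 66.6 to 123 RPM in control libraries. They summed to 846, 609 and 674 RPM in BMP9 replicates 4, 5 and 6. All 4 neutrophil markers past the filter rose, and 6 were below it. S100a9 was the most abundant and Mpo had no reads. The sum over 10 was 23.4 to 43.0 RPM in control and 254, 173 and 129 RPM in BMP9 replicates 4, 5 and 6. The order of replicates was that of Inhba for the immediate-early and platelet sums, but not for the macrophage and neutrophil sums. The dendritic cell sum also had that order (137, 94.1 and 128 RPM in BMP9 replicates 4, 5 and 6), although it was lower than in the controls. An order of 3 libraries is a description, and the source of Inhba was not tested. All 12 T and NK cell markers fell (10 with edgeR, 11 with DESeq2), and their sum, led by Gzmb, was 4552 to 5155 RPM in control and 565 to 875 RPM in BMP9 libraries.

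Markers of other cell types gave smaller or mixed differences, to be read beside the same shares of all tested genes. Among these genes Dcn, Krt18 and the basophil marker Fcer1a passed the filter only through the BMP9 libraries, where they were high. Kdr and Epcam passed it only through the controls. Of 5 tested fibroblast and mural cell markers 2 rose and 2 fell, and their median log2 fold change was -0.84. Dcn rose from 1.23 ± 1.11 to 10.4 ± 3.24 RPM and Col1a1 from 4.67 ± 3.55 to 12.6 ± 5.39 RPM, while Cspg4 fell from 14.5 ± 10.1 to 3.70 ± 1.2975 RPM (SD, n = 3 each). Thy1 fell too, and Col3a1 was at 15.3 and 5.96 RPM on average (adjusted p = 0.299). The sum over the 13 in the list was 1452 to 1658 RPM in control and 184 to 609 RPM in BMP9 libraries, but it was mostly Thy1, which T cells also carry. Of 3 tested epithelial or carcinoma markers 1 rose, Krt18, from 2.04 ± 0.940 to 6.67 ± 1.08 RPM, and Epcam was at 7.02 ± 3.11 and 3.08 ± 0.424 RPM (SD, n = 3 each) with groups that did not overlap (-0.91, limma adjusted p = 0.0847). Cldn4 had no reads, and Cdh1 gave most of a sum of 169 to 193 and 186 to 286 RPM. Of 5 tested endothelial markers 1 rose (Flt1) and 1 fell (Kdr) in limma, 2 were higher and 0 lower with TMM, and 2 were higher (Flt1 and Eng) and 1 lower (Kdr) with edgeR and DESeq2. The sum over 15, led by Pecam1, was 432 to 628 and 354 to 474 RPM. Of 5 mast cell and basophil markers 3 rose, with sums of 136 to 345 and 226 to 294 RPM. Mcpt4, the most abundant, and Kit were lower without a call (-0.21 and -0.90, limma adjusted p = 0.729 and 0.0670). Of 7 dendritic cell markers 2 fell, with sums of 165 to 194 and 94.1 to 137 RPM. Itgae, the most abundant, was not called (-0.69, limma adjusted p = 0.129). Of 4 B cell markers, led by Cd79b, none passed the test, at an adjusted or unadjusted p of 0.05 in limma or an adjusted p of 0.05 in edgeR and DESeq2, with sums of 42.4 to 65.5 and 43.9 to 68.4 RPM. The part of these cell types in the levels of Inhba and the other activin family genes was not tested.

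The genes whose pattern over the 6 libraries was most like that of Inhba, by Pearson's r of log2(RPM + 1) among the 8268 genes whose mean reached 10 RPM, were Adam9, Ptgs2, Ceacam1, Hspa1b and Vegfa, each at r = 0.996. These correlations are a description over 6 libraries that share the difference between groups, and 21 genes had r above 0.99. Ptgs2, the inducible cyclooxygenase, was at 28.1, 28.0 and 21.5 RPM in control replicates 1, 2 and 3 and at 317, 185 and 252 RPM in BMP9 replicates 4, 5 and 6. Vegfa, the vascular endothelial growth factor, was at 26.6, 40.9 and 33.5 RPM and at 308, 189 and 228 RPM in the same order. Both were expressed in the controls, where Inhba had at most 3 reads per library, and both were highest in BMP9 replicate 4 and lowest of the BMP9 libraries in replicate 5. Adam9, a membrane metalloprotease, Ceacam1, an adhesion molecule, and Hspa1b, an inducible heat shock protein, had the same order of replicates. Their log2 fold changes were 1.94, 2.52 and 1.64.

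**Figure D4:**
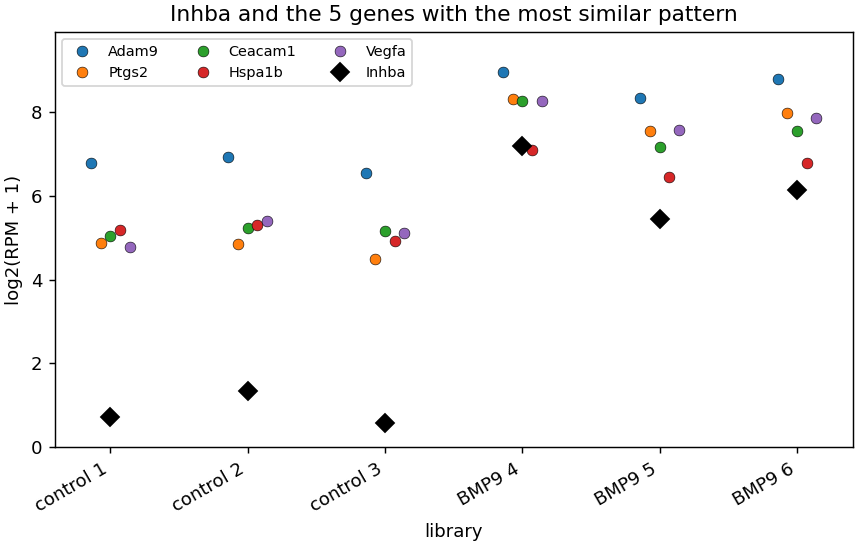
Levels on the log2(RPM + 1) scale of Inhba (black) and the 5 genes with the most similar pattern, in each library. All 6 genes were highest in BMP9 replicate 4, then replicate 6, then replicate 5, and all lay lower in the 3 controls.

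For Acvr2a, the family gene with the highest mean level, the 5 most similar genes were Mia3, Klhdc10, Zfp81, Ano6 and Phka2, with r between 0.961 and 0.969 over the same 6 libraries. None of the 5 was called, and their log2 fold changes lay between -0.21 and -0.10. Acvr2a and Mia3, a cargo receptor of the secretory pathway, were highest in control replicate 1 and BMP9 replicate 6. Those are the deepest libraries of their groups, and the part of depth in these levels was not tested.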

How the data were processed

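Each transcript was amplified as 1 amplicon of the Ion AmpliSeq mouse transcriptome panel, per the labels' protocols, and the submitters' processing notes name mm10. Aligner, counter, filters and annotation were not given in the sources used here. RPM is the unit that the authors deposited, and it sums to the same total in every library. Whole reads were recovered for 100% of nonzero values within 0.05 reads, and on these edgeR called 1693 genes higher and 1421 lower.

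Groups came from the titles. Tests used limma-trend (R 4.3.3 and limma 3.58.1) on log2(RPM + 1), keeping genes that reached 5 RPM in 3 or more libraries, without covariates. Alternatives were pseudocounts of 0.5 and 5, no filter, a mean of at least 20 RPM, TMM, the run time stamp, leaving out each library, and edgeR 4.0.16 and DESeq2 1.42.0 on recovered reads. The procedure was tested on simulated reads. Members, lists and tests were chosen with earlier results of these data known. Named were all members, called pathway genes whose mean reached 10 RPM, the most abundant gene of each pathway and marker list, Pecam1, Gdf2 and the 5 genes most like Inhba and Acvr2a. 1 called pathway gene is counted but is not reported here by name. Other genes that the text names were chosen after their values were seen. Coordinates are whole genes of GENCODE M21. Intervals and floors cover counting error only unless credited to the fit, and reads are PCR copies without molecular identifiers.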

Additional observations from a re-analysis of the deposited data

How the results depend on the processing

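The log2 difference of Inhba lay between 3.78 and 7.02 over the alternatives, which is a description, since Inhba was known to differ when the genes were chosen and passed the filter only where it was high. Acvr1b, Acvr2a and Fstl1 were called in none of the alternatives that tested them. Over all genes the number lower was 1319 with TMM, and 1367 to 2312 when single libraries were left out, with the lowest value without control replicate 1. Of the wider pathway genes, 5 were higher and 4 lower. The number higher was 3 without the filter, 3 at a mean of at least 20 RPM, 10 with TMM, 9 with edgeR, 12 with DESeq2, 8 with that stamp as a covariate (the run time stamp) and 3 to 5 with single libraries left out (3 without control replicate 1). The number lower was 2 of 44 without the filter, where 1512 of 18274 genes were lower. With single libraries left out it was 2 to 5 (2 without BMP9 replicate 6), beside the 1367 to 2312 of all genes given above. Fewer genes were tested at 20 RPM, and otherwise the cause was not tested. Among values of single genes, 226 kept their side of the threshold, 28 lost a call, 11 gained one and none reversed while called. The covariate and the earlier stamp alone both compare BMP9 replicate 4 with the controls, and that library is assumed to vary like the others. No paired analysis was possible because the groups share no replicate numbers. Depth limits Inhbb, Inha, Fst and Fstl3, for which levels near 1 RPM could be missed in the shallower libraries.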
